A study of Caenorhabditis elegans with 2 samples.

Results

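The 8 CCT genes of Caenorhabditis elegans, cct-1 to cct-8, were taken by name from 19973 nuclear protein-coding genes and described at their starts in a chromatin immunoprecipitation experiment. Each gene encodes a different subunit of the cytosolic chaperonin, also called TRiC. Chromatin came from whole young adult hermaphrodites of the transgenic strain OP429, genotype unc-119(tm4063) III; wgIs429. In this strain F23B12.7 carries a GFP-FLAG tag at its C-terminal end, and an antibody recovered the tagged protein with its DNA. The labels describe this antibody as one against GFP in one field and name F23B12.7 itself in another. There was 1 group with 2 biological replicates, so no conditions were compared, and the values of a gene come from all tissues of the worm together. The promoter and copy number of the transgene, and the depth of the libraries, are unknown here.

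The authors deposited 30000 regions for each replicate and 30000 for the pooled reads of both, called against a control and ranked here by the signal value that came with each region. They also deposited 1707 peaks that met an irreproducible discovery rate threshold, called IDR peaks below, which were the 1707 strongest regions of the pooled list. A gene was counted as having a peak when the summit lay within 500 bp of its annotated start. Signal was read only within a list, since its scale may differ between lists. The labels were not checked by the tagged gene, since neither F23B12.7 nor unc-119 had a pooled region within 500 bp of its start and the control is unknown.

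The CCT chaperonin is a pair of stacked rings, each built from 8 related but distinct subunits. It uses ATP to fold newly made proteins, among them actin and tubulin, in a closed chamber. Prefoldin binds unfolded actin and tubulin and passes them on to it. All subunits are needed in the ring, and the genes are scattered in the genome: cct-1 to cct-4 are on chromosome II, cct-5 and cct-6 on III, cct-7 on V and cct-8 on IV.

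The DNA under the strongest pooled summit at each gene is shown first. Each window holds a pair of inverted GAA triplets, GAANNTTC or TTCNNGAA. GAANNTTC alone was in 4 of the 8. TTCNNGAA, in 5 of the 8, was searched only after strings shared by these windows had been listed. The count of all 8 was thus reached with a string chosen on them. Either string was also in 18.5% of nuclear IDR peaks and in 23.04% of promoter windows. Each sequence runs from 5′ to 3′ on the strand of the CCT gene, 100 bp to each side of the summit, and ends at the first base of any protein-coding gene. Bases are from the RefSeq copy of WBcel235, the same build as ce11. Capitals mark matches, on either strand, to CCAAT, GAGA, GAANNTTC and TTCNNGAA, some of which overlap. The windows were chrIV:1094257-1094457, chrIII:4508500-4508700 and chrIII:5855882-5856017 on the minus strand. On the plus strand they were chrII:8185109-8185309, chrV:1871995-1872195, chrII:8283356-8283556, chrII:8927362-8927562 and chrII:2233419-2233539.
cct-8: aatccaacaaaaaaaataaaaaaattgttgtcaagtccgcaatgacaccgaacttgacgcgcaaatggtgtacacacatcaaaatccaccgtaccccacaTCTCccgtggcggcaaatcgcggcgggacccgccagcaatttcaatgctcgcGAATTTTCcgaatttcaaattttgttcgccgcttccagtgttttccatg
cct-5: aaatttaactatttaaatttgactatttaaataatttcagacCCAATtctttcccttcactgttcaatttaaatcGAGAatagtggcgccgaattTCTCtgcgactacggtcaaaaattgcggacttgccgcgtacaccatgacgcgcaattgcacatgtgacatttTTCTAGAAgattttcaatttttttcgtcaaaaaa
cct-1: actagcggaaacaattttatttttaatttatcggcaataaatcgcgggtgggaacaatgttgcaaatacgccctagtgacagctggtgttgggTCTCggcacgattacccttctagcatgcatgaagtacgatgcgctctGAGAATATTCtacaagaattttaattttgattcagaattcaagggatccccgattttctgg
cct-6: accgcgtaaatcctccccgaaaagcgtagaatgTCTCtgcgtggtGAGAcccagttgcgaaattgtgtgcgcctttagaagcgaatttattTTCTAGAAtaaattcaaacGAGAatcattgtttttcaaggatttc
cct-7: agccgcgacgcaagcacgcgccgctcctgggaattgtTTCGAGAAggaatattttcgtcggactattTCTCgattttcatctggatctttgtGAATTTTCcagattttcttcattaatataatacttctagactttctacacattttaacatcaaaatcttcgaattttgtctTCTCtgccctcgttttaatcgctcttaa
cct-4: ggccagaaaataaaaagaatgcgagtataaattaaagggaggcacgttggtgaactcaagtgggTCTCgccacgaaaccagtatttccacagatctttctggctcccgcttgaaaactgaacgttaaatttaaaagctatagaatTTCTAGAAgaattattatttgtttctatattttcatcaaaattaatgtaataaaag
cct-2: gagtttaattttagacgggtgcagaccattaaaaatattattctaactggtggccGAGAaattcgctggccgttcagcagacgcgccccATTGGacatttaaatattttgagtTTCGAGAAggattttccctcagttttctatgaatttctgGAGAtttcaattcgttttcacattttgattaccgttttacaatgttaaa
cct-3: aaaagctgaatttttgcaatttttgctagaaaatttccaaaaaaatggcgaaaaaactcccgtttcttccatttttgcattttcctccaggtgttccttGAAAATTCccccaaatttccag

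Of the 8 genes, 6 had an IDR peak at the start, namely cct-1, cct-4, cct-5, cct-6, cct-7 and cct-8 (75%, 95% exact binomial interval 34.9 to 96.8%). Among all protein-coding genes the share was 6.72%. All 8 had a region of the pooled list in reach, against 37.2% of protein-coding genes, and all 8 had one in the list of replicate 1 (37.7%), of replicate 2 (37.6%) and so of both (25.7%). The interval treats genes as independent and covers counting error only. The count was 3, against 4.21%, when the reach was 250 bp, since the summits of cct-5, cct-6 and cct-8 lay further upstream.

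The strongest member was cct-8, which encodes the theta subunit. Its peak had a pooled signal of 93.0, rank 176 of 30000, with a signal of 59.6 and rank 152 in replicate 1 and 30.6 and rank 371 in replicate 2. Among protein-coding genes with a pooled region at their start, only 1.82% had a stronger one. In the order of IDR peaks at coding starts, the neighbours of cct-8 were the peak shared by rpl-39 and rps-30 just above, at rank 175 and signal 93.1, and that of rps-4 just below, at rank 178 and signal 92.9. These encode ribosomal proteins, and the likeness rests on 1 value in 1 list. The cct-8 summit was nearer to the start of Y55F3AR.2, at 184 bp, than to that of cct-8, at 437 bp. The summits of cct-5, cct-1 and cct-6 were also nearer to another coding start, as given below.

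The genes of the epsilon and alpha subunits came next and were close together in each list. For cct-5 the pooled signal was 79.8 at rank 275, with 41.7 at rank 474 in replicate 1 and 37.3 at rank 200 in replicate 2. For cct-1 it was 79.1 at rank 289, with 41.6 at rank 478 and 36.2 at rank 231. In all 3 lists cct-5 was just ahead of cct-1. In replicate 2 both stood above cct-8, so the order of these 3 genes was not the same in the replicates.

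The middle of the family was held by cct-6, encoding the zeta subunit, and cct-7, encoding the eta subunit. The cct-6 peak had a pooled signal of 58.1 at rank 662, with 38.5 at rank 607 in replicate 1 and 20.5 at rank 1073 in replicate 2. The cct-7 peak had 55.0 at rank 755, with 31.1 at rank 1024 and 25.3 at rank 606. The replicates put these genes in opposite orders, so neither stood above the other beyond the spread between replicates.

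The delta and beta subunit genes lay on either side of the IDR threshold. The lowest nuclear IDR signal was 37.99. The cct-4 peak was inside, with a pooled signal of 40.5 at rank 1523, and cct-2 was outside, with 35.4 at rank 1964, 257 places below the last IDR peak. The replicates ranked both differently. For cct-4 the signal was 17.4 at rank 3490 in replicate 1 and 22.6 at rank 830 in replicate 2, the widest gap in ranks of the family at 4.20 times. For cct-2 it was 22.9 at rank 1982 in replicate 1 and 11.01 at rank 4385 in replicate 2. Each replicate thus placed a different one of these genes higher.

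The gamma subunit gene cct-3 stood apart from the others at the low end. Its strongest pooled region had a signal of 14.3 at rank 10995, with 7.47 at rank 17266 in replicate 1 and 5.86 at rank 14611 in replicate 2. It was the last of the family in all 3 lists. Of the protein-coding genes with a pooled region at their start, 61.04% had a stronger one than cct-3, against 20.3% for cct-2. The median pooled signal over all these genes was 17.5, and over the 8 CCT genes 56.6.

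**Figure D1:**
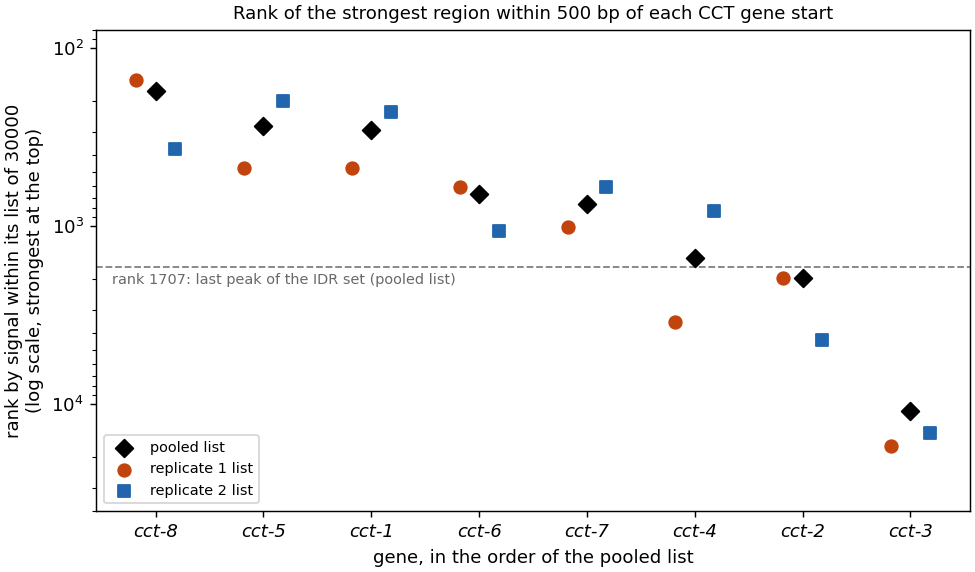
Rank by signal, on a log axis with the strongest at the top, of the strongest region within 500 bp of each CCT gene start, in the pooled list (black) and in the list of replicate 1 (red) and replicate 2 (blue), each of 30000 regions. Pooled points above the dashed line at rank 1707 are IDR peaks: cct-4 lies just above it at 1523, cct-2 just below at 1964 and cct-3 far below at 10995.

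With the 1707 strongest regions of each replicate taken on their own, replicate 1 gave 5 members and replicate 2 gave 6, against 6.42% and 6.13% of protein-coding genes. The gene missing from replicate 1 was cct-4. Those found in both were cct-1, cct-5, cct-6, cct-7 and cct-8, where 4.02% of protein-coding genes were found in both. No member entered by 1 replicate that was not in the IDR set. The pooled reads include both replicates, so the pooled list is no independent repeat of either.

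**Figure D2:**
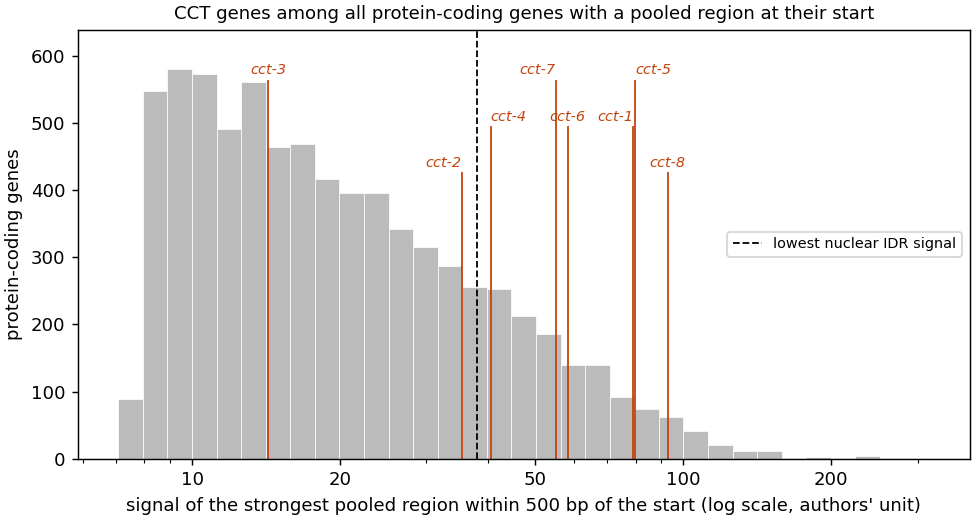
Number of protein-coding genes by the signal of the strongest pooled region within 500 bp of the start (log axis, the authors' unit), for the 7433 genes that have one. Red lines mark the 8 CCT genes, of which cct-2 and cct-3 lie left of the dashed line at the lowest nuclear IDR signal.

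The replicates placed the summits at most 39 bp apart at all members but cct-7 and cct-2. The strongest regions of replicate 1 and replicate 2 at each gene overlapped for all 8 members, by 216 to 324 bp. For the 6 genes with an IDR peak the summits were 14 to 109 bp apart, with a median of 27.5 bp. Over 1004 IDR peaks at coding starts that were overlapped in both replicates, the strongest overlapping regions had summits a median of 35 bp apart, with quartiles of 16 and 66 bp. The widest gap among these 6 was at cct-7. There replicate 1 had a summit at −252 bp and another, at rank 1950, at −47 bp, and the pooled list had 1 summit between them at −151 bp. At cct-2, outside the IDR set, the summits were 124 bp apart.

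All 6 IDR summits were upstream of the CCT gene, at a median of −264.5 bp, as were 91.95% of those at all protein-coding genes with an IDR peak. The nearest was that of cct-7 at −151 bp, followed by cct-4 at −211 bp, cct-1 at −234 bp, cct-6 at −295 bp, cct-8 at −437 bp and cct-5 at −486 bp. Over all 1342 protein-coding genes with an IDR peak the median was −191.5 bp, with quartiles of −287 and −108 bp. The summits of 3 members, cct-5, cct-6 and cct-8, were upstream of the outer quartile of such genes, and the cct-5 summit was just inside the limit of reach. Pooled summits outside the IDR set lay at −279 bp for cct-2 and −21 bp for cct-3. Worm transcripts are often trans-spliced, and an annotated start can then be the splice site, with transcription starting further out. Whether this holds for the CCT genes was not tested.

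Every CCT gene with an IDR peak faced a coding gene on the other strand, and the summit lay between the starts. These pairs were cct-1 with mig-5, a Dishevelled gene of Wnt signalling, cct-4 with nst-1, which encodes the nucleolar GTPase nucleostemin, and cct-6 with alh-9, an aldehyde dehydrogenase gene. RefSeq describes the partner of cct-5, F25F2.1, as a protein kinase domain gene, that of cct-7, T10B5.4, as an N-acetyltransferase domain gene and that of cct-8, Y55F3AR.2, as a thioredoxin domain gene. The starts of these pairs were 331 bp (cct-6) to 741 bp (cct-5) apart. The opposite starts nearest to cct-2 and cct-3, those of B0457.2 and F54A3.6, were 1190 and 1070 bp away and out of reach of the summits.

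In 4 of the 6 pairs the summit was nearer to the partner than to the CCT gene. The cct-6 summit was 36 bp from the Ensembl start of alh-9 and 295 bp from that of cct-6. The RefSeq start of alh-9 is 1191 bp further along, so this partner depends on the annotation, while all 8 CCT starts were the same in both. The cct-8 summit was 184 bp from Y55F3AR.2, the cct-1 summit 186 bp from mig-5, against 234 bp from cct-1, and the cct-5 summit 255 bp from F25F2.1. At cct-4 and cct-7 the CCT gene was the nearer, with 211 bp against 248 bp and 151 bp against 288 bp. When each IDR peak was given to its nearest coding start alone, 2 of 8 CCT genes kept a peak, cct-4 and cct-7, against 5.02% of protein-coding genes. With RefSeq starts it was 3 of 8, with cct-6, against 5.0%. Which gene of a pair a summit belongs to cannot be told apart from these lists.

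Head-to-head starts had IDR peaks elsewhere in the genome too. Of protein-coding genes other than the CCT genes whose start lay within 1000 bp of an upstream start on the other strand, 20.4% had an IDR peak, and of all others 3.75%. Over all genes, the CCT genes included, the first share was 20.5%. The difference was not tested. Such genes were 17.7% of the genome. In the lists compared below they were 63.6% of proteasome, 59.3% of cytosolic ribosomal and 44.8% of DNAJ genes. They were 33.3% of prefoldin genes and 4.76% of actin and tubulin genes. In the CCT family they were 6 of 8. With Ensembl starts all 6 had an IDR peak and the other 2 had none. Those 2, cct-2 and cct-3, also faced a coding start on the other strand, 1190 and 1070 bp away. They lay just beyond the limit of 1000 bp, so this split depends on the limit. With RefSeq starts, where alh-9 begins further away, 5 members were head to head, all with an IDR peak, and 1 of the other 3, cct-6, had one, beside shares of 20.5% and 3.74% of protein-coding genes by RefSeq starts. Of the 1342 protein-coding genes with an IDR peak, 670 (49.9%) had another coding start in reach of the same summit. The part of this arrangement in the CCT counts was not tested.

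**Figure D3:**
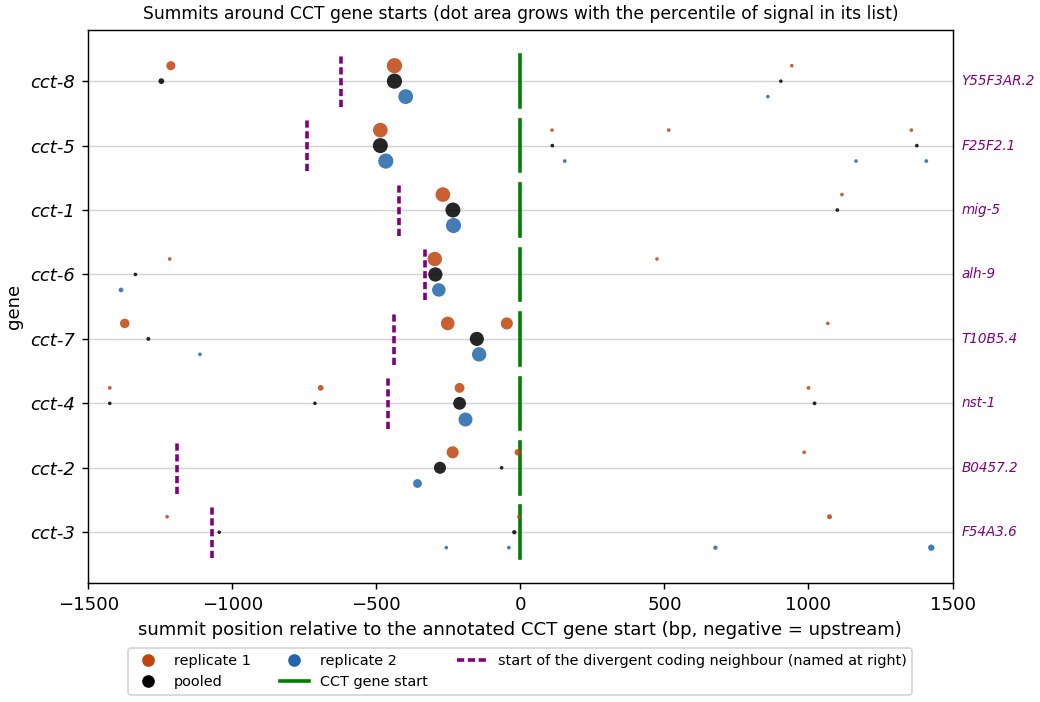
Summits within 1500 bp of each CCT gene start, in bp relative to the start with upstream to the left, for replicate 1 (red), the pooled list (black) and replicate 2 (blue); dot area grows with the percentile of signal within the list. The large dots of the upper 6 genes lie between the CCT start (green) and the start of the divergent neighbour (purple, dashed), while the neighbours of cct-2 and cct-3 are 1190 and 1070 bp away.

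Small annotated noncoding genes also had their start near a pair of these summits. T10B5.13 begins 115 bp from the cct-7 summit and Y55F3AR.4 begins 270 bp from the cct-8 summit. Both are annotated only as ncRNA, and neither holds the summit. None of the strongest pooled regions at the 8 genes held a 36-mer found elsewhere in the genome, whereas 20.5% of nuclear IDR peaks held at least 1. Reads of that length from the CCT peaks would have a single exact match.

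Beyond the starts, the genes had only regions outside the IDR set. No IDR peak had its summit inside a CCT gene more than 500 bp from the start, and only 1.73% of protein-coding genes had one there. Pooled summits lay there in 7 of the 8, all but cct-2, against 31.8% of protein-coding genes, with no allowance for gene length. The pooled list had 11 such regions in cct-5, 9 of them in introns, the strongest in an intron with a signal of 32.4 at rank 2366. It had 7 in cct-3, of which the strongest, in an exon, had a signal of 19.9 and was above that at the cct-3 start. The cct-5 gene is 8927 bp long with an intron of 6134 bp, and cct-3 is 10000 bp long. The start peak was the strongest pooled region within 5000 bp of the start at 6 genes, the exceptions being cct-3 and cct-7. Near cct-7 an IDR peak of signal 124.9 at rank 60 lay −3474 bp from its start, with the start of knl-3, a kinetochore gene, in reach.

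The sequences above held pairs of inverted GAA triplets. The heat shock element, the site of heat shock factor, is built of such triplets in a row. Each string searched here holds only a single pair, and longer rows were not searched. GAANNTTC occurred in the windows of cct-1, cct-3, cct-7 and cct-8, 4 of 8, and in 11.3% of 1684 nuclear IDR peaks over the same 201 bp. Its share of promoter windows was 13.2%, and 3 of the 6 members with an IDR peak held it. TTCNNGAA occurred in those of cct-2, cct-4, cct-5, cct-6 and cct-7, 5 of 8, against 9.92% of IDR peaks. TTCTAGAA, a form of TTCNNGAA, was at cct-4, cct-5 and cct-6, against 1.13% of IDR peaks and 1.59% of promoter windows. TTCNNGAA and TTCTAGAA were searched only after the 7-mers found in 4 or more of the windows had been listed. There were 22 such 7-mers, and these searches are a description only. Some of the 22 hold no GAA triplet. ATTTTGA was in 6 of 8 windows, 11.05% of IDR peaks and 18.2% of promoter windows, and AGACCCA in 4 of 8, 4.22% and 1.90%. At least one of GAANNTTC and TTCNNGAA was in all 8 windows, in 18.5% of IDR peaks and in 23.04% of windows centred 200 bp upstream of all protein-coding starts. The 8 of 8 was reached only with TTCNNGAA, which was chosen on these windows, so it cannot be weighed against those shares.

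The paired triplets were found at the strongest and at the weakest member. GAATTTTC in the cct-8 window lay −385 bp from the start and GAAAATTC in the cct-3 window, the weakest, −22 bp. TTCTAGAA lay at −419 bp in cct-5, −239 bp in cct-6 and −166 bp in cct-4. Both cct-2 and cct-7 held TTCGAGAA, which includes a GAGA match, and at cct-1 GAATATTC overlaps GAGA by 2 bases. A match is a string of letters and not a measured site, and binding of heat shock factor was not measured here.

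The remaining motifs were nearer to their shares over all peaks. CCAAT was in the 201 bp of 3 genes, cct-2, cct-5 and cct-6, and in 29.5% of IDR peaks and 33.4% of promoter windows. The cct-6 match lies beyond the part printed, which stops at alh-9. CACGTG was in none of the 8 and in 4.51% of IDR peaks. GAGA was in all 8, at cct-3 beyond the part printed, and in 87.9% of IDR peaks and 77.8% of promoter windows. The G and C share of the windows had a median of 38.3% and a range of 33.8 to 46.3%, with medians of 41.3% for IDR peaks and 33.8% for promoter windows.

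Genes that work with the chaperonin had IDR peaks at part of their members. Of the 6 prefoldin genes 2 had one, against 6.72% of protein-coding genes, pfd-1 with a signal of 66.4 at −333 bp and pfd-6 with 43.9 at −60 bp. The pfd-1 summit also reached the start of F01G4.6. All 6 had a pooled region in reach, against 37.2%, and pfd-3, with a signal of 34.3 at rank 2119, was just outside the IDR set, as cct-2 was. The others were pfd-5 at rank 5651, pfd-4 at rank 8605 and pfd-2 at rank 27380.

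Of 21 actin and tubulin genes, the clients of the chaperonin, 5 had an IDR peak (23.8%, against 6.72%). The strongest was at the beta-tubulin gene tbb-1, with a signal of 102.7 at −253 bp, in reach of rib-2 too. It was followed by the alpha-tubulin genes tba-2, with 87.3 at −120 bp, and tba-7, with 76.7 at 421 bp, inside the gene. The actin genes act-5, known from the intestinal microvilli, and act-2 had 47.4 and 43.01. The other 16 had none. Of all 21, 12 had a pooled region in reach, against 37.2% of protein-coding genes. The strongest of the 7 outside the IDR set was at the actin gene act-4 at rank 2239. Of the mitochondrial chaperonin, hsp-60 had no IDR peak and a pooled region of signal 22.4 at 370 bp, rank 4773.

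The share of genes with an IDR peak was 75% for CCT, 33.3% for prefoldin, 51.5% for 33 proteasome genes, 31.03% for 29 DNAJ co-chaperone genes and 80.2% for 81 genes named rpl, rps or rla, of the cytosolic ribosome. For the last 3 lists the 95% exact intervals were 33.5 to 69.2%, 15.3 to 50.8% and 69.9 to 88.3%. The interval of the CCT share, with 8 genes, overlaps each of them, and the differences between lists were not tested. The median signal of the IDR peaks was 68.6 for the 6 CCT genes, 50.3 for the proteasome, 53.1 for DNAJ and 92.9 for ribosomal genes. It was 76.7 for actin and tubulin and 55.2 for prefoldin, and 53.9 over all 1342 protein-coding genes with an IDR peak. With the nearest start alone the shares were 25% for CCT, 42.4% for the proteasome, 17.2% for DNAJ and 48.1% for the ribosome. They were 16.7% for prefoldin and 19.05% for actin and tubulin. Among all protein-coding genes the share was 5.02% by this rule and 6.72% with any start in reach.

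**Figure D4:**
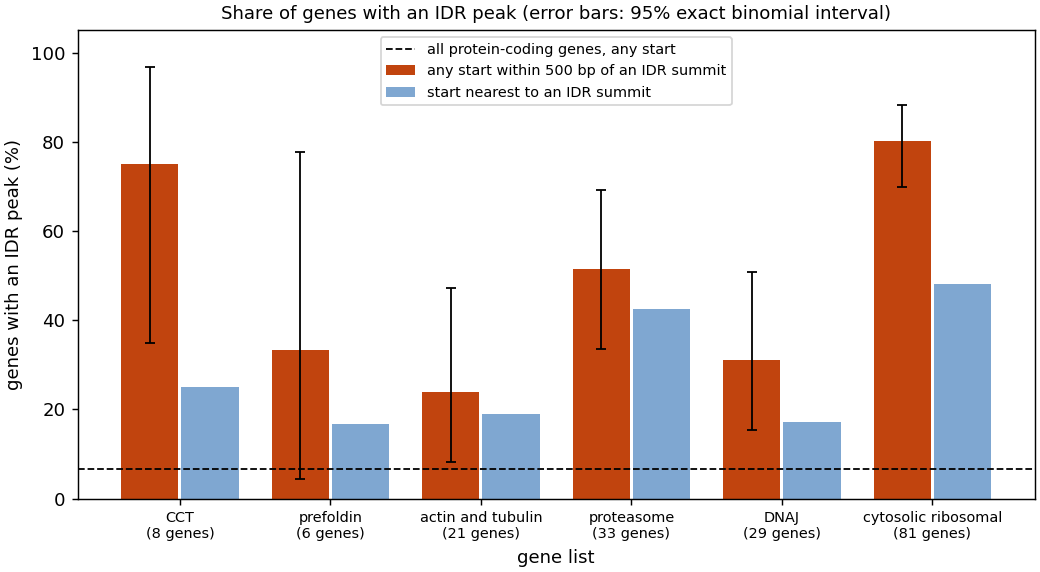
Share of genes in percent with an IDR peak, counting every start within 500 bp of a summit (red, with 95% exact binomial intervals) or only the start nearest to a summit (blue), for 6 gene lists. The CCT bars are at 75% and 25%, the widest drop among them, and the dashed line marks the 6.72% of all protein-coding genes.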

How the data were processed

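Peak lists from 2 biological replicates of 1 group were used. Per the deposited listing of files, the authors derived each list of regions from alignments and a control. The IDR peaks came from the replicate and pooled lists. No aligner, caller, version or IDR threshold is named in the sources used here. The signal of each region, on a scale of its own in each list, and the −log10 q-value are the authors' deposited values. The lists hold no read totals.

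The ce11 lists were used, since all peak ends fit the WBcel235 chromosomes. The ce10 lists were not used here. The annotation was Ensembl release 115. Pairing of summits and starts was tested on simulated peaks, using numpy 2.4.6, pandas 2.3.3, scipy 1.17.1 and matplotlib 3.10.9. No test was made: there is 1 group, and the members and gene lists were chosen with earlier results of these data known. Member counts were read against the share of all protein-coding genes. Named genes are the members, genes whose start lies in reach of a member's summit, the coding-start peaks ranked next to the strongest member, and list members with an IDR peak. The upstream coding neighbours out of reach, knl-3 and list members without an IDR peak were named after their values were seen. Names hsp-10 and tbb-3 matched no gene. Alternatives covered reach, peak overlap, nearest start, RefSeq starts, stronger peaks, ranking and each replicate alone.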

Additional observations from a re-analysis of the deposited data

How the results depend on the processing

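The count of 6 CCT genes with an IDR peak was 6 with a reach of 1000 bp, against 8.47% of protein-coding genes. It was also 6 with any base of the peak in reach, against 7.38%, and with RefSeq starts, against 6.67%. With IDR peaks above the median nuclear signal it was 5, against 3.60%. It was 3 with a reach of 250 bp, against 4.21%, and 2 with the nearest start alone, against 5.02%. With the nearest RefSeq start alone, chosen after seeing the data, it was 3, against 5.0%. Taking the 1707 strongest regions of 1 replicate gave 5 for replicate 1, against 6.42%, and 6 for replicate 2, against 6.13%. The count of 8 with a region in both replicate lists was 4 with a reach of 250 bp, against 14.0% of protein-coding genes. The pooled count of 8 was 6 at 250 bp, against 24.8%, and 8 in its other alternatives. Their shares of protein-coding genes were 48.5% at 1000 bp, 42.1% with any base of the peak in reach and 37.1% with RefSeq starts. The members' median percentile of signal in the pooled list was 97.6, with a range of 97.3 to 97.6 over the lists of single replicates, and 100 when ranked by q-value, since 1187 pooled regions tied at the lowest q-value. The median summit position moved from −264.5 to −256.5 bp with the strongest pooled regions of all 8 genes. No paired analysis was possible because there is 1 group and no result comes from a test. Depth is unknown, so how far it limits the ranks of cct-2 and cct-3 cannot be given.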
